A study of Mus musculus with 6 samples.

Results

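The Hox cofactors of the Pbx, Meis and Pknox families were read in motoneurons taken from the right and the left side of the cervical spinal cord of mouse embryos. The 8 genes examined were Pbx2, Pbx3, Pbx4, Meis1, Meis2, Meis3, Pknox1 and Pknox2, and every probe set annotated to exactly 1 of these symbols was kept. That gave 20 probe sets of the 45037 on the array once the control probe sets were set aside. Of these, 17 probe sets for 7 genes reached a signal of 200 in at least 1 pool, the limit used for all right and left comparisons, and were among 21853 that did so. The 3 that fell short were both probe sets of Pbx4 and 1 of the 2 for Pknox2.

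Pools of GFP-positive motoneurons were cut by laser from sections of 3 littermate HB9::GFP embryos at E11.5, a right and a left pool from each embryo, and each pool was hybridized to its own Affymetrix mouse expression array, on which each gene is read by 1 or more probe sets. The right pools are set against the left pools of the same embryo throughout, because the study asked which transcripts differ between the sides before the phrenic nerves branch differently in the right and left diaphragm. All embryos carried the transgene, in which regulatory sequence of the motoneuron gene HB9 (Mnx1) drives GFP, so the captured areas were chosen by GFP and can also contain neighboring cells. Since 1 litter supplied all 3 embryos, the spread between embryos does not include that between litters.

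Pbx, Meis and Pknox proteins belong to the TALE class of homeodomain proteins, named for extra residues in a loop of the homeodomain. Pbx proteins bind DNA next to a Hox protein, and Meis and Pknox (Prep) proteins bind Pbx and help to bring it into the nucleus, so that Hox, Pbx and Meis or Pknox often share 1 regulatory element. In the spinal cord Hox proteins set the identity of motoneurons along the body axis, and Hox5 proteins are needed for phrenic motoneurons, which makes the partners of Hox proteins of interest in this tissue. A bulk pool cannot tell fewer expressing cells from less RNA per cell.

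Markers of motoneurons were read in the pools, and so were markers of other cells. All 8 motoneuron genes listed (among them Mnx1, Isl1 and Chat) and all 5 cervical and phrenic genes (among them Pou3f1 and Alcam) reached the signal limit, and none met the fold rule explained in the next paragraph. The right pool of embryo 1 stood apart: the summed signal of 12 mesenchyme and sclerotome markers, each gene by its brightest probe set, was 17013 there, against 2123 in the left pool of embryo 1. In embryos 2 and 3 it was 2454 and 1939 in the right pools, against 964 and 1857 in the left pools. Skeletal muscle markers summed to 5229 in that right pool and to between 113 and 333 in the 5 others. Dorsal cord and roof plate markers summed to 2369.7, 1707 and 1126 in the right pools of embryos 1, 2 and 3, against 469, 1022 and 1085 in the left pools. The fold rule was met with the right higher by 4 of 13 mesenchyme, 2 of 5 dorsal and 1 of 7 muscle marker probe sets. Of all tested probe sets 2.4% met it with the right higher. The part of these other cells in the cofactor signals was not tested.

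No cofactor probe set that reached the limit passed either test for a difference between the right and left motoneurons. With 17 probe sets and the shares of calls over the whole array given below, a count of 0 says little about the cofactors. By the fold rule, taken from the study's methods without their requirement of a present call, a probe set is called when log2(R/L), the log2 of the right over the left signal within an embryo, has the same sign in 3 embryos, a mean beyond ±0.58 (1.5-fold) and a value beyond it in 2 or more of them. Of the 17 cofactor probe sets 0 met this rule with the right side higher and 0 with the left side higher, while 2.4% of all tested probe sets met it with the right higher and 1.55% with the left higher. limma with the embryo as a block, adjusted by the Benjamini-Hochberg method over all 21853 tested probe sets, called 0 cofactor probe sets in either direction, as it did for the whole array (0.0% each way). Without embryo 2 it called 15 probe sets of the whole array with the right higher and 6 with the left higher, and no cofactor. At an unadjusted p under 0.05 the count was also 0 of 17, against 1.92% of tested probe sets with the right higher and 1.48% with the left higher. Without embryo 2 it was 1, Pknox1 1450172_at, and with no signal limit it was 1, Pbx4 1449916_at. The adjusted p-values of the 17 lay between 0.974 and 0.995. In no cofactor probe set that reached the limit did the right pools all lie on 1 side of the left pools, against 2.98% (right higher) and 2.45% (left higher) of all tested. Without embryo 2, Pknox1 1437470_at met the fold rule with the left higher, at a mean log2(R/L) of −0.76. With 3 pairs the exact sign-flip permutation test cannot give a two-sided p under 0.25.

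Pbx3, a partner of Hox proteins in the nervous system, gave bright signals that were close on both sides. The probe set 1421193_a_at read 9673, 12618 and 12725 in the right pools of embryos 1, 2 and 3, against 10468, 11532 and 12129 in the left pools. The right and left ranges overlapped, and the pools of embryo 1 were the lowest on each side. Its log2(R/L) was −0.11, 0.13 and 0.07 in embryos 1 to 3, a mean of 0.03 ± 0.13 (SD, n = 3), with a 95% interval from limma of −0.22 to 0.28, or 0.857- to 1.21-fold. The other Pbx3 probe set, 1447640_s_at, read 4112, 5978 and 5158 in the right pools, against 3674, 5353 and 5045 in the left pools. The right pool was above the left in every embryo, by 0.16, 0.16 and 0.03 on the log2 scale, and the mean of 0.12 ± 0.07 (SD, n = 3) had a 95% interval of −0.17 to 0.40. Probe set names ending in a_at match several transcripts of 1 gene, and names ending in s_at or x_at can also match related sequences, so such probe sets of a family are uncertain.

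Pbx2, a broadly expressed Pbx protein, was read by 3 probe sets whose right over left values differed in size. The probe set 1418894_s_at gave 1421, 1615 and 1226 in the right pools, against 1323, 1308 and 1185 in the left pools. Here too the right pool was higher in each of the 3 embryos, with a mean log2(R/L) of 0.15 ± 0.13 (SD, n = 3), a 95% interval of −0.23 to 0.54 and a sign-flip permutation p of 0.25, the lowest that test can reach. With 1447640_s_at of Pbx3 it made 2 of 17 cofactor probe sets (11.8%) that were higher on the right in every embryo, close to the 12.7% of all tested probe sets. None of the 17 was higher on the left in all 3, against 10.8% of all tested. Probe set 1418893_at of Pbx2 read 919.6, 1022 and 1121 in the right pools, against 846, 574 and 1193 in the left pools. The gap in embryo 2 came with the lowest of the 6 values, in its left pool, and the other embryos differed by less, with log2(R/L) of 0.12, 0.83 and −0.09. Its mean of 0.29 ± 0.48 (SD, n = 3) was the highest among the 17 tested cofactor probe sets, with a 95% interval of −0.23 to 0.80, and it was 0.015 without embryo 2. Probe set 1449261_at read 994, 1397 and 1151 in the right pools, against 1430.2, 972 and 1103 in the left pools. For this probe set embryo 1 was higher on the left and embryo 2 on the right by nearly the same amount, −0.53 and 0.52, so that the mean was 0.02 ± 0.53 (SD, n = 3).

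Pbx4, which in mouse is known chiefly from the testis, gave little signal in these pools. Probe set 1449916_at read 6.16, 10.6 and 43.1 in the right pools, against 37.0, 41.8 and 79.0 in the left pools. The left pool was higher in every embryo, but all 6 values were far under the limit of 200, and the ranges overlapped. At these signals its log2(R/L) of −2.58, −1.98 and −0.87 would meet the fold rule only if no signal limit were set. Probe set 1454912_at gave 4.44, 3.86 and 4.62 in the right pools, against 2.97, 3.52 and 3.76 in the left pools. The 2 probe sets thus ran in opposite directions at signals under the median of every array (99.9 to 118), and neither was tested.

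**Figure D1:**
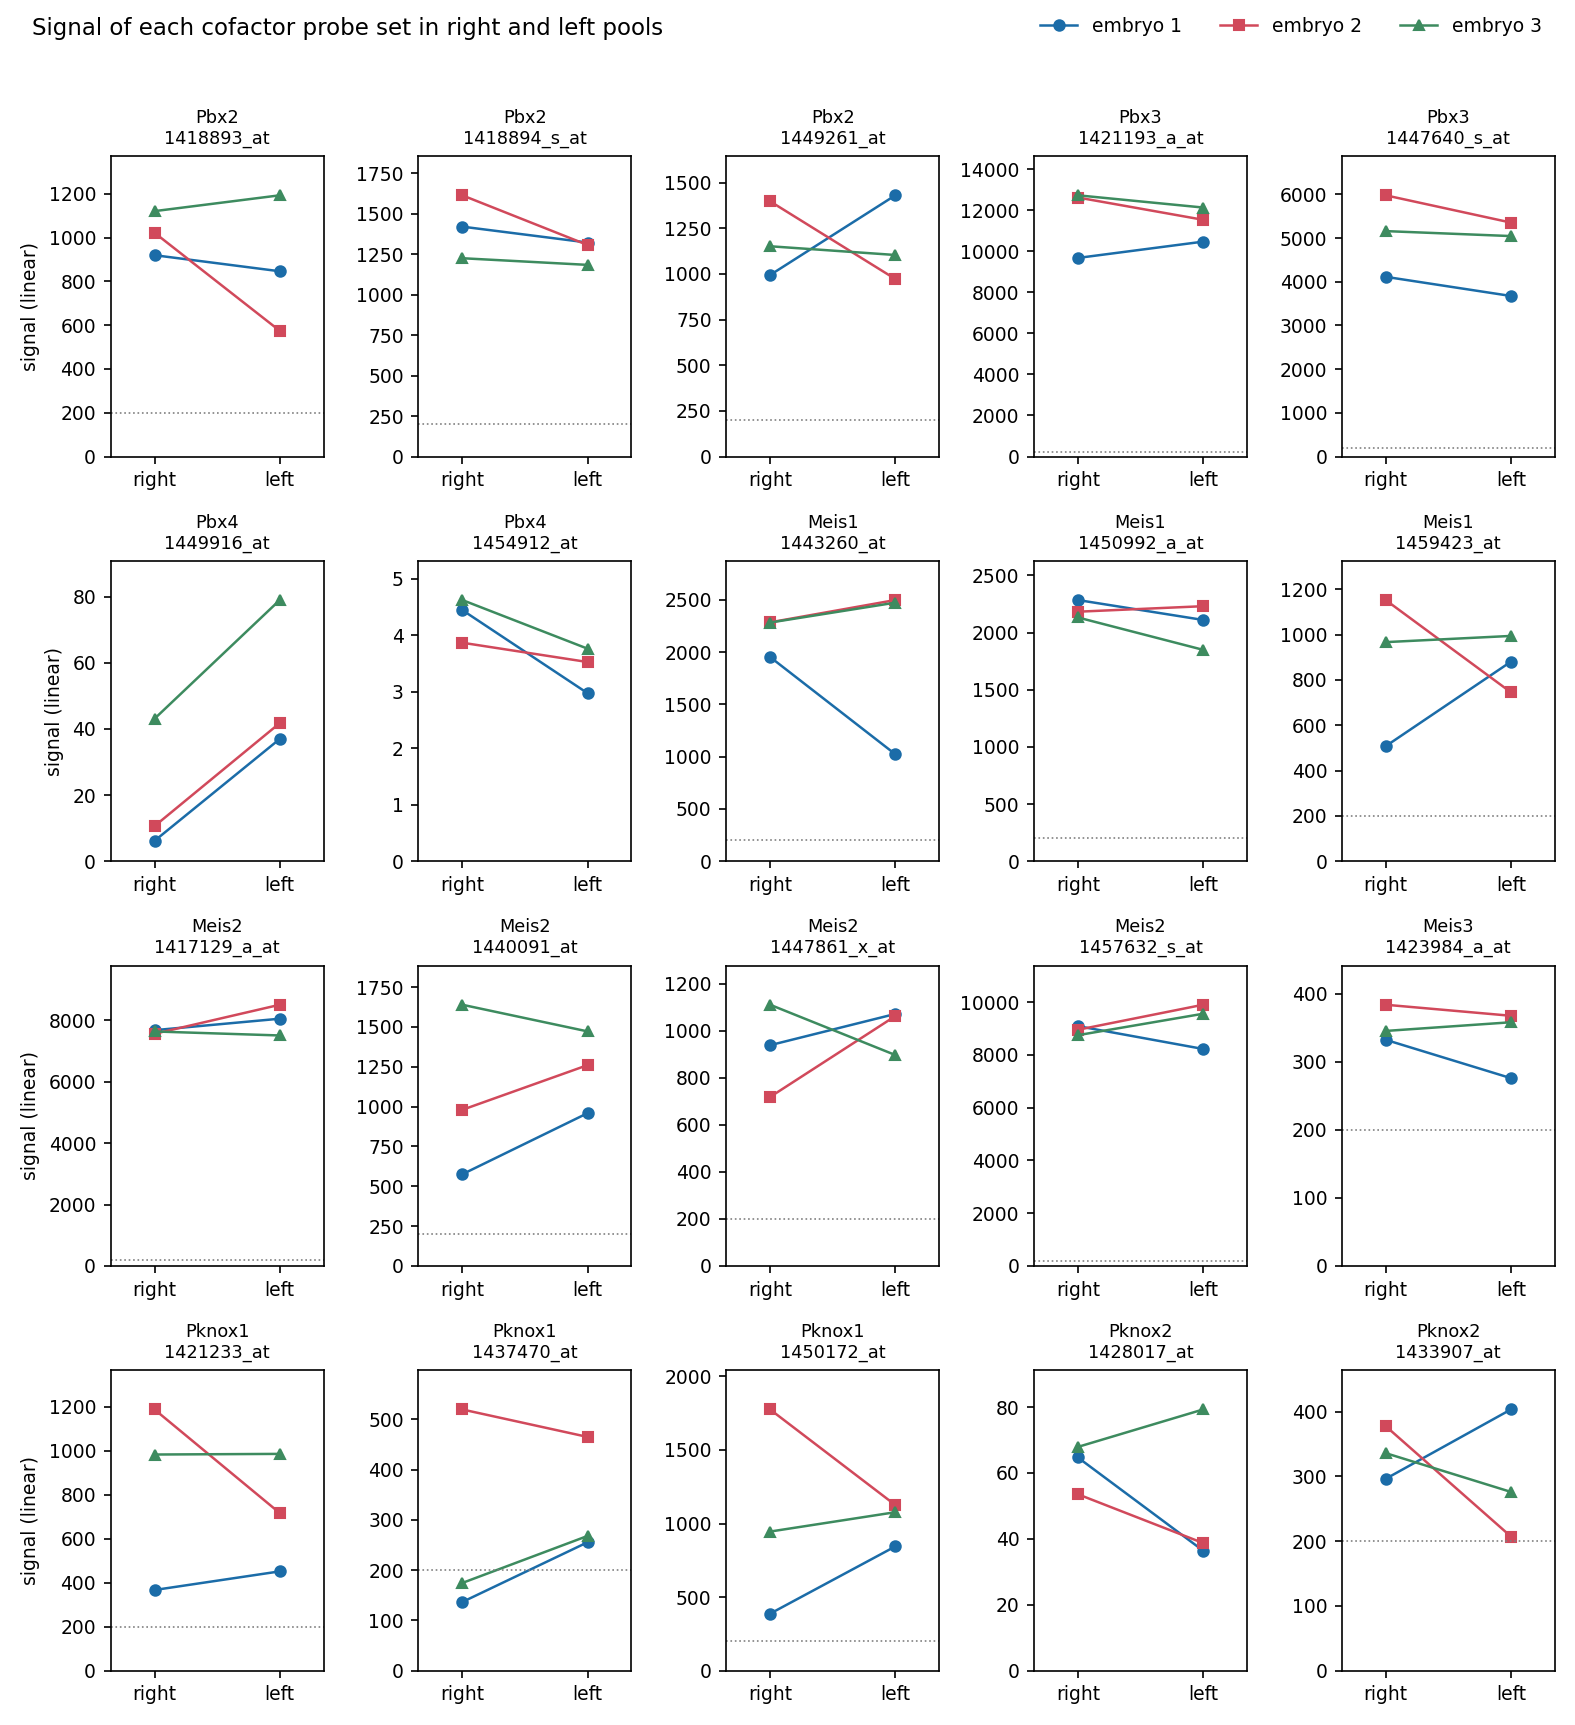
Linear signal of the 20 cofactor probe sets in the right and left pools, with a line joining the 2 pools of each embryo and a dotted line at the limit of 200 where it lies within the axis. Meis2 1417129_a_at and Pbx3 1421193_a_at have nearly level lines, and both Pbx4 probe sets and Pknox2 1428017_at stay under 200 in all 6 pools.

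Meis2, which with Meis1 is a widely used marker of the proximal limb and is also found in neurons, had 2 bright probe sets with nearly equal sides. The probe set 1417129_a_at read 7682, 7565 and 7641 in the right pools, against 8056, 8511 and 7510.3 in the left pools. The right pools lay within the range of the left pools, and the mean log2(R/L) was −0.07 ± 0.10 (SD, n = 3), with a 95% interval of −0.33 to 0.19. The probe set 1457632_s_at gave 9094, 8956 and 8751 in the right pools, against 8228, 9905 and 9564 in the left pools. Again the right range fell inside the left one, and log2(R/L) averaged −0.04 ± 0.16 (SD, n = 3), with a 95% interval of −0.31 to 0.23. These intervals, each for 1 probe set on its own, lie inside 1.5-fold either way. So do those of both Pbx3 probe sets, of Pbx2 1418894_s_at and 1449261_at, and of Meis1 1450992_a_at. Such an interval is for the mean and not for single embryos, which for Pbx2 1449261_at ran from −0.53 to 0.52.

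The dimmer Meis2 probe sets varied more. For 1440091_at the signals were 575, 979.5 and 1639 in the right pools, against 959, 1259.9 and 1472 in the left pools. Embryos differed more than sides here, with embryo 1 lowest and embryo 3 highest on each side, and log2(R/L) was −0.74, −0.36 and 0.16. The mean of −0.31 ± 0.45 (SD, n = 3) had the lowest unadjusted limma p of the 17 tested, 0.176 (adjusted p = 0.974), and was −0.10 without embryo 1 and −0.55 without embryo 3. For 1447861_x_at they were 939, 719 and 1112 in the right pools, against 1072, 1063 and 897 in the left pools, with a mean log2(R/L) of −0.15 ± 0.44 (SD, n = 3). In embryo 2 all 4 Meis2 probe sets were higher on the left, by 0.15 to 0.56 on the log2 scale, whereas in embryo 3 the left was higher in 1 of 4.

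Meis1, the Meis protein first known from leukemia in mice, was also read by 3 probe sets, and they disagreed in embryo 1. The probe set 1450992_a_at was the steadiest, at 2285, 2183 and 2132 in the right pools, against 2111, 2231 and 1849 in the left pools. Its mean log2(R/L) was 0.10 ± 0.12 (SD, n = 3), with a 95% interval of −0.25 to 0.44. The probe set 1443260_at read 1953, 2284 and 2282 in the right pools, against 1023, 2498 and 2472 in the left pools. Its left pool of embryo 1 was far under the 5 others, and log2(R/L) was 0.93 in embryo 1, −0.13 in embryo 2 and −0.12 in embryo 3. The mean of 0.23 ± 0.61 (SD, n = 3) rested on embryo 1 and was −0.12 without it. In the same embryo the third probe set, 1459423_at, ran the other way, with 508, 1153 and 967 in the right pools, against 881, 746 and 994 in the left pools. Its log2(R/L) was −0.79, 0.63 and −0.04, a mean of −0.07 ± 0.71 (SD, n = 3) that was 0.29 without embryo 1.

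Meis3, a family member studied mainly in the hindbrain of frog and fish, had a single probe set, 1423984_a_at, with low but steady signals. They were 332, 384 and 345 in the right pools, against 276, 368 and 358 in the left pools. The sides overlapped, and log2(R/L) averaged 0.09 ± 0.16 (SD, n = 3), with a wide 95% interval of −0.50 to 0.68 and a mean of 0.0049 without embryo 1.

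Pknox1 (Prep1), which binds Pbx in place of Meis, had the widest swings between pools among the tested cofactors. Its 3 probe sets had the same lowest and highest pool but differed in embryo 3. The probe set 1450172_at read 387, 1775 and 945 in the right pools, against 845, 1126 and 1077 in the left pools. The lowest and the highest of the 6 values were both in right pools, of embryos 1 and 2, and they spanned 2.20 on the log2 scale, the widest range among the tested cofactor probe sets. The probe set 1421233_at read 367, 1189 and 984 in the right pools, against 452, 717 and 986 in the left pools. It had the same lowest and highest pools. The third, 1437470_at, was the dimmest, with 137, 519 and 174 in the right pools, against 255, 465 and 268 in the left pools. The pools of embryo 3 averaged 1.61-fold of those of the others for 1421233_at, but 0.714-fold for 1437470_at.

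In embryo 1 all 3 Pknox1 probe sets were higher on the left, with log2(R/L) between −1.12 and −0.30, and in embryo 2 all 3 were higher on the right, between 0.16 and 0.73. In embryo 3 they were again higher on the left, between −0.62 and −0.0042, the last a near tie. When each array was scaled to its median the signs still agreed in embryo 1, but 1 of 3 turned in embryo 2 and 1 of 3 in embryo 3. The means of 1421233_at, 1437470_at and 1450172_at were 0.14 ± 0.53, −0.45 ± 0.55 and −0.22 ± 0.89 (SD, n = 3 each), and no limma interval excluded 0. Without embryo 1 these means were 0.36, −0.23 and 0.23, and without embryo 2 they were −0.15, −0.76 and −0.66. Probe sets of 1 gene read the same RNA of a pool, so the agreement of 3 probe sets describes those pools and does not add embryos.

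Pknox2 (Prep2), the second Prep protein, reached the limit with 1433907_at only, which read 296, 378 and 336 in the right pools, against 403, 207 and 276 in the left pools. Its highest and lowest values were both in left pools, of embryos 1 and 2, so that log2(R/L) was −0.45 in embryo 1, 0.87 in embryo 2 and 0.28 in embryo 3. The mean was 0.23 ± 0.66 (SD, n = 3), with a 95% interval of −0.50 to 0.97, and it was 0.57 without embryo 1 and −0.081 without embryo 2. Probe set 1428017_at, not tested, read 64.7, 53.5 and 67.9 in the right pools, against 36.4, 38.7 and 79.3 in the left pools.

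**Figure D2:**
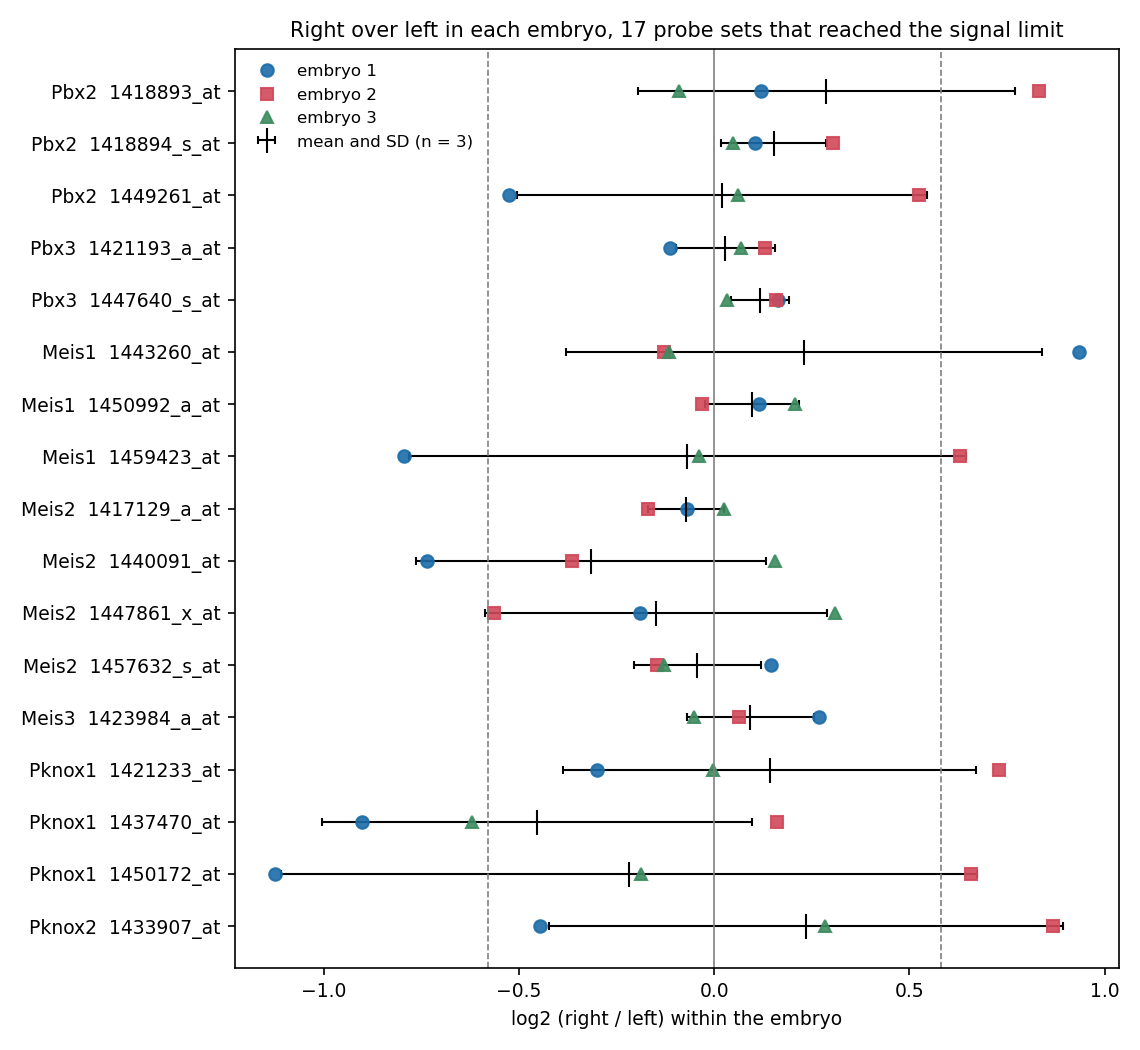
log2(R/L) of each tested cofactor probe set in embryos 1, 2 and 3 (symbols), with the mean and SD over the 3 embryos (black) and dashed lines at ±0.58, the 1.5-fold limit. All 17 means lie between −0.45 and 0.29, inside the dashed lines, and the Pknox1 probe sets lie left of 0 in embryo 1 and right of 0 in embryo 2.

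Over all 17 tested probe sets, the cofactors had mean log2(R/L) values from −0.45 to 0.29, a span that held 74.6% of all tested probe sets. Their median was 0.03, against 0.02 for all tested. The right side was higher on average in 10 of 17 probe sets, against 52.5% of all tested, namely in 5 of 5 for Pbx, 3 of 8 for Meis and 2 of 4 for Pknox. These splits depended on the scaling and on the embryos. After scaling to the array medians the total was 8 of 17 and the Pbx count 3 of 5. Without embryo 2 the total was also 8 of 17, with 3 of 5 for Pbx, 5 of 8 for Meis and 0 of 4 for Pknox. In 8 of 17 probe sets (47.1%) at least 1 embryo passed 1.5-fold, against 51.6% of all tested. None of those 8 kept the same sign in all 3 embryos.

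How far embryos differed among themselves depended on the signal. The 6 cofactor probe sets with a mean signal of at least 2000 had a median SD of log2(R/L) of 0.12, and the 11 below it a median SD of 0.53. Over all tested probe sets these medians were 0.22 and 0.45. Single probe sets departed from this. Meis1 1443260_at, with a mean signal above 2000, had an SD of 0.61. The dimmer Pbx2 1418894_s_at and Meis3 1423984_a_at had SDs of 0.13 and 0.16. The limma intervals were narrower for Pbx3 and the bright Meis2 probe sets than for Pknox1, Pknox2 or Meis3. The fit draws each variance toward a trend on mean signal, so part of this order is built in. Meis3 had a wide interval despite its SD of 0.16.

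**Figure D3:**
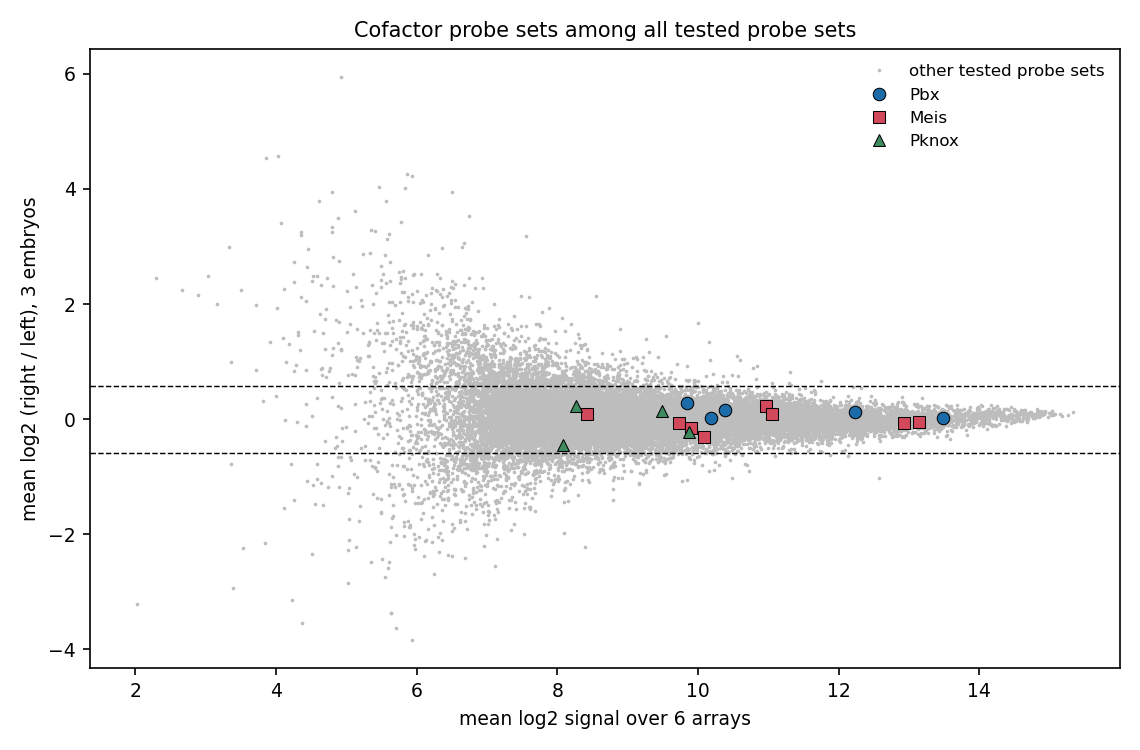
Mean log2(R/L) over 3 embryos against mean log2 signal over 6 arrays for the 21853 tested probe sets (grey) and the cofactors (Pbx circles, Meis squares, Pknox triangles), with dashed lines at ±0.58. The 17 cofactor probe sets lie inside the dashed lines and within the grey cloud at their signal.

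The 2 pools of an embryo came from the same sections, so the pools could also be compared between littermates. In the limma fit the term for embryo passed an adjusted p of 0.05 in 0 of 17 cofactor probe sets, against 0.27% of all tested. At an unadjusted p under 0.05 it passed in 6 of 17 (35.3%), against 15.3% of all tested. These were Pbx3 1447640_s_at, Meis1 1443260_at, Meis2 1440091_at and the 3 probe sets of Pknox1. The lowest p was that of Pknox1 1421233_at, 0.00389 (adjusted p = 0.139), for which the pools of embryo 1 averaged 0.427-fold of those of the others. Without embryo 2 the term passed after adjustment for Meis1 1443260_at, Meis2 1440091_at and Pknox1 1421233_at (adjusted p = 0.0428, 0.00452 and 0.00228), and without embryo 1 for Pknox1 1437470_at (adjusted p = 0.0348), in fits that called 6.2% and 5.15% of all tested probe sets. With 2 pools per embryo, the term compares 3 animals and no condition.

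Cofactor probe sets were most often lowest in embryo 1. Both of its pools read under the 4 others in 7 of 17 probe sets (41.2%), against 11.9% of all tested, and above the 4 others in 0 of 17, against 9.93%. After scaling to the array medians the first count was 5 of 17 (29.4%), against 8.5% of all tested, without Pbx3 1421193_a_at and Meis2 1440091_at. The 7 belonged to 5 genes, namely both probe sets of Pbx3, 2 of Pknox1, and 1 each of Meis1, Meis2 and Meis3. They included bright signals, such as Pbx3 1447640_s_at with 4112 in the right and 3674 in the left pool of embryo 1, and dim ones, such as Meis3. In Meis2 1417129_a_at, by contrast, all 6 pools lay between 7510.3 and 8511. Embryo 2 was under the 4 others in 0 of 17 (8.06% of all tested) and embryo 3 in 1 of 17 (12.8% of all tested). Both pools of embryo 2 were above the 4 others in 4 probe sets (23.5%, against 8.78% of all tested), in Pbx3, Meis3 and Pknox1, and both pools of embryo 3 in 2 (11.8%, against 13.4% of all tested), Pbx2 1418893_at and Meis2 1440091_at. Probe sets of 1 gene share their RNA, the direction was noticed in these values, and no test was made of these counts. Motoneuron markers ran the other way between embryos: their summed signal was 19041, 15762 and 14326 in the right pools of embryos 1, 2 and 3, against 19721, 17615 and 14483 in the left pools. The mesenchyme signal was high in the right pool of embryo 1 alone, and its left pool, at 2123, lay within the 964 to 2454 of the other pools. The part of the motoneuron marker signal or of the mesenchyme signal in these counts was not tested.

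**Figure D4:**
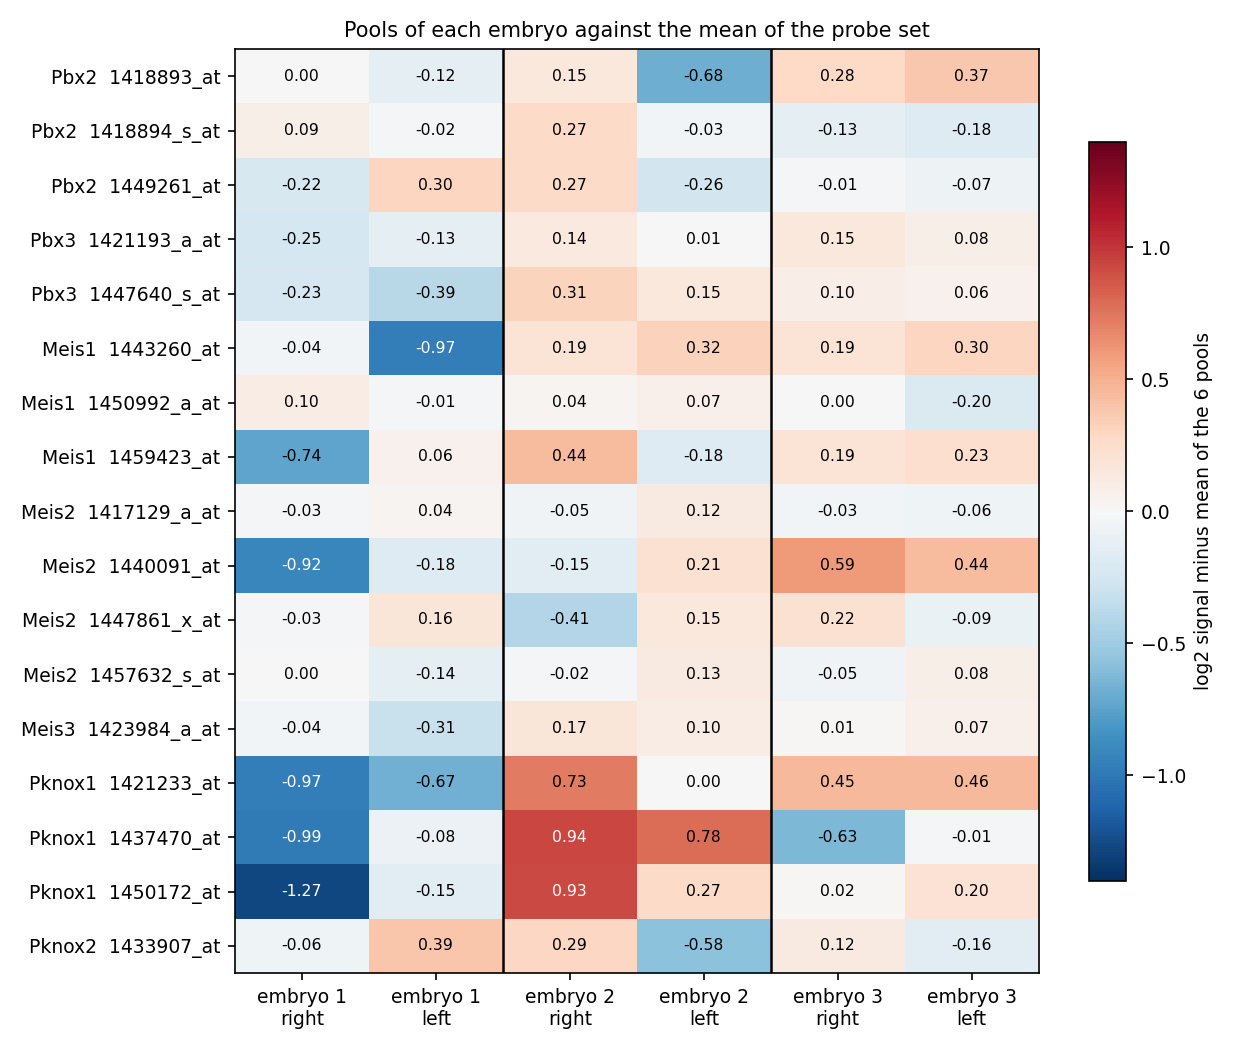
Log2 signal of each tested cofactor probe set in each pool minus its mean over the 6 pools (red above, blue below), with the right and left pool of each embryo side by side. The 2 columns of embryo 1 are blue in both pools for Pbx3, Meis2 1440091_at and Pknox1, down to −1.27 in the right pool for Pknox1 1450172_at.

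The proteins with which the cofactors work were read from the same fit. Of 15 Hox genes of groups 4 to 8, 9 had a probe set that reached the limit, 15 probe sets in all. None met the fold rule, against 2.4% (right higher) and 1.55% (left higher) of all tested. At an unadjusted limma p under 0.05 the count was 0, against 1.92% and 1.48%, and after adjustment it was 0, as for the whole array. With 15 probe sets these counts of 0 say little. The mean log2(R/L) had a median of 0.12, against 0.02 for all tested, with a range of −0.59 to 0.68. It was above 0 in 13 of 15, against 52.5% of all tested, a count that was not tested. Hoxa5, which is needed for phrenic motoneurons, read 4522, 3596 and 4559 in the right pools, against 3627.5, 3429 and 4348 in the left pools, for 1448926_at. Its right pool was higher in every embryo, by a mean log2(R/L) of 0.15 ± 0.14 (SD, n = 3). A second Hoxa5 probe set, 1443803_x_at, was higher on the left in 2 of 3 embryos, with log2(R/L) of 0.34, −0.069 and −0.20 and a mean of 0.02 ± 0.28 (SD, n = 3). Hoxc5, which acts with it, read 4375, 6746 and 6197 in the right pools, against 4660.3, 5703 and 6273.5 in the left pools, for 1439885_at, and the mean was 0.04 ± 0.18 (SD, n = 3). The Hoxc5 probe sets 1450832_at and 1456301_at averaged −0.07 ± 0.21 and 0.10 ± 0.22 (SD, n = 3 each).

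Several Hox probe sets differed between embryos. Both pools of embryo 1 were under the 4 others in 7 of 15, against 11.9% of all tested, and above them in 4 of 15, all of Hoxc6 and Hoxd8, against 9.93%. Both pools of embryo 2 were under the 4 others in 5 of 15, against 8.06%. The embryo term had an unadjusted p under 0.05 in 10 of 15, against 15.3% of all tested. Hoxb5 1418415_at, chosen after its values were seen, read 5513, 12612 and 11756 in the right pools, against 4847, 11597 and 11934 in the left pools. Embryo 1 was far under its littermates on each side, and this was the 1 Hox probe set of 15 whose embryo term passed limma after adjustment over all tested (adjusted p = 0.0223), against 0.27% of all tested.

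The other TALE genes and the proteins that act with Pbx were few. Of 9 Tgif, Irx and Mkx genes 5 reached the limit with 1 probe set each, with mean log2(R/L) between −0.01 and 0.26. Of these 0 met the fold rule (2.4% and 1.55% of all tested, right and left higher) or an unadjusted limma p under 0.05 (1.92% and 1.48%). Of the genes for proteins that bind Pbx or act with its complexes, Pbxip1, Hdac1, Hdac3 and Crebbp reached the limit with 6 probe sets in all. Here too 0 met either criterion, and beside the same shares of all tested, counts of 0 in 5 and 6 probe sets say little. The means of these 6 probe sets ranged between 0.03 and 0.61 with a median of 0.11. The highest was that of Pbxip1 1451132_at, with log2(R/L) of 0.49, 1.31 and 0.03 in embryos 1 to 3. Another Pbxip1 probe set, 1460344_at, stayed under the limit and averaged −0.43.

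The probe sets with the most similar pattern over the 6 pools were sought for 2 cofactors. For Pbx3 1421193_a_at, which had the highest mean signal, these were Rfxank 1419310_s_at (Pearson's r of log2 signals = 0.999), Fzd3 1434788_at (0.997) and Ebf3 1452751_at (0.997). Fzd3, a Wnt receptor used in axon guidance, read 2253, 3464 and 3618 in the right pools, against 2506, 3054 and 3326 in the left pools. Ebf3, a transcription factor of newly born neurons, read 1628, 2849.9 and 2949 in the right pools, against 1863, 2442 and 2663 in the left pools. For Pknox1 1450172_at, with the widest range, they were Gria2 1421970_a_at (0.999), Cacng7 1426336_at (0.996) and Ttc39b 1440192_at (0.990). Ttc39b was dim as well, from 8.53 in the right pool of embryo 1 to 268 in that of embryo 2. Gria2, an AMPA receptor subunit, read 597, 1696 and 1123 in the right pools, against 1046, 1276 and 1210.1 in the left pools. The right pool of embryo 1 was the lowest for each of these 6 genes, and the highest pool was the right one of embryo 3 for those like Pbx3 and of embryo 2 for those like Pknox1. The 6 pools come from 3 embryos, and 426 of 18932 candidate probe sets exceeded r = 0.9 for Pbx3 and 295 for Pknox1, so the values describe these pools and nothing particular to the genes named.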

How the data were processed

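Total RNA from 6 laser-captured pools was amplified, labeled with biotin and hybridized, 1 array per pool. The authors deposited 1 signal intensity per probe set, computed with MAS5 in Affymetrix Expression Console (versions not given in the sources used here). MAS5 subtracts mismatch from perfect-match probes and scales each array to a common mean, so low values are noisy and amplification can compress or widen ratios. Array medians lay between 99.9 and 118. Probe sets were named from GEO's platform annotation, 34945 with 1 gene, 932 with several and 9160 with none. Different probe sets cannot be ranked by level.

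Log2 intensities of probe sets with a highest signal of at least 200 were fitted in limma 3.58.1 (R 4.3.3) using 1 coefficient for the side and 2 for the embryo, with a trend in the variance, adjusted by Benjamini-Hochberg over 21853 probe sets. The methods take ratios within embryos, and same-numbered pools come from 1 embryo; their deviations correlated at 0.241, 0.215 and 0.495. Summaries used Python 3.11.15, and the fit was tested on simulated data. The members and gene lists were chosen with earlier results of these data known. One gene of the list of Pbx-binding proteins is not reported here. All 8 cofactors, Hoxa5 and Hoxc5 were named by rule, with genes of the Hox, TALE and Pbx-binding lists (not of the marker lists) that met the fold rule or an unadjusted p under 0.05, and the 3 closest probe sets for the likeness. The present and absent calls of the methods were not used here. Alternatives were other scalings, limits and fold cut-offs, a constant of 50 added to signals, no embryo block, all probe sets of a gene averaged and each embryo left out.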

Additional observations from a re-analysis of the deposited data

How the results depend on the processing

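The counts above 0, those of the fold rule over all tested probe sets, moved by over 1.5 times in 18 of 22 alternatives. Counts of 0 stayed at 0 in 131 cases and did not in 10, which with so few probe sets says little of stability. The mean log2(R/L) of single cofactors kept its sign in 97 cases and turned in 12. Left calls by the fold rule among the cofactors were 0 to 1 when an embryo was left out (Pknox1 1437470_at without embryo 2) and 1 with no signal limit (Pbx4 1449916_at). For all tested probe sets the rule called 333 with the right higher and 197 with the left higher when 50 was added to each signal, 2805 and 1696 with no limit, 131 and 104 with a highest signal of at least 500, 234 and 176 with a mean signal of at least 200, 191 and 95 with a 2-fold limit, and 84 and 49 with 1.5-fold in all 3 embryos. Leaving out an embryo gave 144 to 986 with the right higher and 143 to 607 with the left higher, against 524 and 338 with all embryos. limma called 0 to 15 with the right higher and 0 to 6 with the left higher when an embryo was left out, and its embryo term called 0 to 3 cofactor probe sets. With no signal limit the rule called 2 Hox partners (Hoxa4 1420226_x_at and Hoxc8) and 2 other TALE genes (Tgif1 and Irx4) with the right higher, all under the limit of 200. Stricter limits leave fewer probe sets and 2 embryos are easier to pass than 3 by construction, and other causes were not tested.

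Scaling to the array medians turned the mean of Pbx2 1449261_at to −0.066 and that of Pbx3 1421193_a_at to −0.058. When an embryo was left out, means with a turned sign ranged from −0.23 to 0.29 for Pbx2 1449261_at, −0.022 to 0.10 for Pbx3 1421193_a_at, −0.12 to 0.41 for Meis1 1443260_at, −0.42 to 0.29 for Meis1 1459423_at, −0.38 to 0.059 for Meis2 1447861_x_at, −0.14 to 0.0082 for Meis2 1457632_s_at, −0.15 to 0.36 for Pknox1 1421233_at, −0.66 to 0.23 for Pknox1 1450172_at and −0.081 to 0.57 for Pknox2 1433907_at.

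Without the embryo block limma called 0 cofactor probe sets and 0 of all tested, as with it. Counts of 0 in both fits say little of what the block does. At an unadjusted limma p under 0.05, 742 of all tested probe sets passed with the block and 320 without it. With 3 embryos the 95% limits of log2(R/L) reach 0.25 to 0.74 on either side of the mean, for single probe sets and without adjustment. Differences within these limits in Pknox1, Pknox2 or Meis3 cannot be told from 0. Larger ones can also go uncalled. After adjustment over 21853 probe sets limma called none, although means over all tested ran from −3.83 to 5.94. Probe sets under the signal limit, Pbx4 among them, give no usable ratio.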
